A study of Drosophila melanogaster with 6 samples.

Results

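The 10 genes described here, imd, Fadd, Dredd, Tak1, Tab2, key, Rel, pirk, Diap2 and casp, encode the intracellular part of the IMD pathway. They were taken by FlyBase gene ID, matched to its current symbol, from the 16641 genes counted in each library. The IMD pathway is an antibacterial signalling route of Drosophila that is triggered when receptors of the peptidoglycan recognition family bind bacterial peptidoglycan. The adaptors Imd and Fadd then recruit the caspase Dredd, ubiquitin chains made with the ligase Diap2 draw in the kinase Tak1 with its partner Tab2 and the IkappaB kinase complex that contains Kenny (key), and the NF-kappaB factor Relish (Rel) is cleaved and enters the nucleus. Relish switches on antimicrobial peptide genes and also genes that act back on the pathway, such as pirk and Rel itself, and the pathway is best known for its work in the fat body and the gut.

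RNA of heads was sequenced from 3-day-old males kept at 18 °C, in 3 libraries of flies whose strain label reads y, sc, Adar5G1 and 3 libraries of w1118 flies. Adar encodes the enzyme that converts adenosine to inosine in RNA, Adar5G1 is a mutant allele of it, y and sc are markers of the same stock, and w1118 is a white-eyed laboratory strain used as the wild type. Each genotype was a single stock, so the Adar allele and any other difference between the stocks cannot be told apart. Separate collections of flies are not stated for the replicates, so the p-values reflect a spread between libraries that may be purely technical.

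The libraries held between 6872569 and 21639081 counts over genes. Adar itself had 5, 1 and 19 counts in Adar5G1 replicates 1, 2 and 3, against 2602 to 6142 per w1118 library. Rows of ribosomal RNA and of non-coding genes on unplaced scaffolds held 14.3% to 26.1% of the counts in Adar5G1 and 8.86% to 38.9% in w1118. Markers of the head's cell types were present in both groups: the summed level of 7 photoreceptor markers was 17625 to 20566 CPM (counts per 1000000 counts of the library, scaled by TMM factors) in Adar5G1 and 22446 to 24122 CPM in w1118. For 7 neuronal markers it was 5167 to 6482 against 4505 to 5155 CPM, for 8 glial markers 1738 to 1986 against 2043 to 2210 CPM, and for 9 hemocyte markers 475 to 697 against 509 to 767 CPM.

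Of the 10 genes, 3 rose in Adar5G1 and 0 fell at an adjusted p of 0.05 (edgeR quasi-likelihood test over 10201 genes). Over all genes tested, 8.82% rose and 5.13% fell. The rises were those of Rel, pirk and casp, that is the transcription factor and a pair of inhibitors. Among the other 7 genes, Diap2 alone had an unadjusted p under 0.05, and DESeq2 and limma-voom likewise found 0 falls. The median log2 fold change of the 10 genes was 0.06, beside -0.00028 for all genes tested. All 10 passed the filter on low counts. The groups did not overlap for 5 of the 10, against 31.5% of all genes tested.

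**Figure D1:**
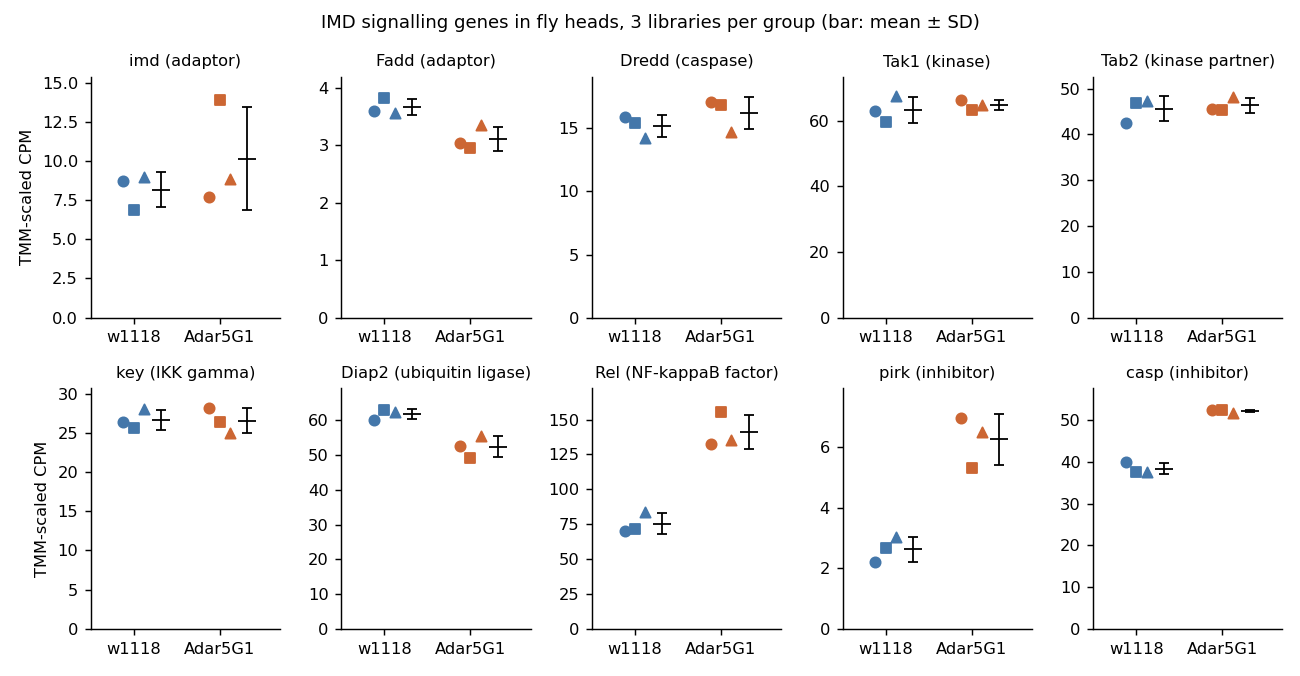
Each panel shows 1 gene of the IMD pathway, with TMM-scaled CPM on the vertical axis from 0 and the groups on the horizontal axis. Circles, squares and triangles are replicates 1, 2 and 3, and the bar beside them is the mean ± SD of 3 libraries. The groups stand apart for Rel, pirk, casp, Diap2 and Fadd, and mix for the other genes.

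Levels were compared between genes as CPM per kb of exon, averaged over the 3 libraries of a group. In w1118 heads Diap2 was the highest at 29.0 ± 0.704 (SD, n = 3), followed by Rel at 21.5 ± 2.12, key at 18.8 ± 0.889 and Tak1 at 16.1 ± 0.997. Below these came casp at 14.7 ± 0.515, Tab2 at 11.5 ± 0.683 and Dredd at 8.90 ± 0.497. The adaptor genes imd, at 6.20 ± 0.863, and Fadd, at 3.15 ± 0.122, were lower still, and pirk was the lowest at 2.02 ± 0.315. In that order only the neighbours Tak1 and casp had ranges over libraries that overlapped. Among all genes tested, Diap2 stood at percentile 82.6 of this level and pirk at percentile 14.2.

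In Adar5G1 the order changed at the top and at the bottom. Rel became the highest at 40.3 ± 3.53 CPM per kb, ahead of Diap2 at 24.6 ± 1.44, and casp moved up to 19.97 ± 0.129, level with key at 18.7 ± 1.14. At the lower end pirk, at 4.81 ± 0.649, now lay above Fadd, at 2.68 ± 0.182. The ranges of Rel and Diap2 did not overlap in either group, and neither did those of pirk and Fadd. Neighbours whose ranges overlapped in Adar5G1 were casp and key, and Dredd and imd. Rel took 32.1% to 36.0% of the summed CPM of the 10 genes in Adar5G1 libraries and 21.2% to 23.5% in w1118 libraries.

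**Figure D2:**
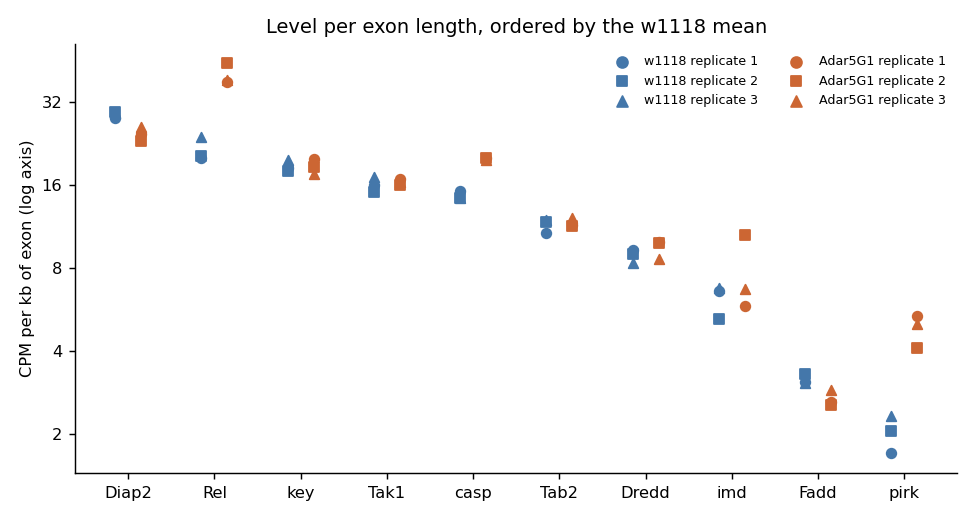
CPM per kb of exon is plotted on a log axis for each gene, ordered from the highest to the lowest w1118 mean. Points are single libraries, blue for w1118 and orange for Adar5G1, with 1 shape per replicate number. Rel overtakes Diap2 in Adar5G1, and pirk overtakes Fadd.

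The adaptors came first in the order of signalling. The gene imd (FBgn0013983, dm3 2R:14297301-14299037, minus strand), whose protein couples the receptors to the pathway, had 7.68, 13.9 and 8.86 CPM in Adar5G1 replicates 1, 2 and 3 and 8.71, 6.88 and 8.96 CPM in w1118 replicates 1, 2 and 3. Adar5G1 replicate 2 was the highest of the 6 libraries, and the other Adar5G1 libraries lay within the w1118 range. The fold of Adar5G1 over w1118 was 1.21 (95% interval 0.847 to 1.73, edgeR adjusted p = 0.505). Without Adar5G1 replicate 2 its log2 fold change was 0.04, in place of 0.28. In the deposited annotation 40 bases of its exons are overlapped by GstE9 on the opposite strand.

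Fadd (FBgn0038928, 3R:17860177-17861339) encodes the death-domain adaptor that bridges Imd and Dredd. It had 3.03, 2.95 and 3.35 CPM in Adar5G1 and 3.60, 3.83 and 3.56 CPM in w1118. Every Adar5G1 library lay below every w1118 library, at 20 to 70 counts per library. The change did not pass the test (0.855-fold, 95% interval 0.649 to 1.13, edgeR adjusted p = 0.475), and the interval holds both a fall and a rise.

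Dredd (FBgn0020381, X:527655-529578), the caspase that cleaves Imd and Relish, had 17.1, 16.8 and 14.7 CPM in Adar5G1 and 15.9, 15.4 and 14.3 CPM in w1118. Its fold was 1.06 (95% interval 0.895 to 1.26, edgeR adjusted p = 0.678), and the groups overlapped. Dredd is X-linked and lies 1138 kb from Adar.

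In the kinase module the groups lay close together. Tak1 (FBgn0026323, X:20386935-20395955), the kinase that activates both the Relish arm and the JNK arm, had 66.3, 63.3 and 64.6 CPM in Adar5G1 and 62.9, 59.6 and 67.4 CPM in w1118. Its partner Tab2 (FBgn0086358, 2R:15180034-15192013), which binds ubiquitin chains, had 45.5, 45.3 and 48.2 against 42.5, 47.0 and 47.4 CPM. The gene key (FBgn0041205, 2R:20673037-20674934), which encodes the regulatory subunit of the IkappaB kinase complex, had 28.2, 26.4 and 25.0 against 26.4, 25.6 and 28.1 CPM.

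The groups overlapped for each of these kinase-module genes. Their folds were 1.03 for Tak1 (95% interval 0.913 to 1.15), 1.02 for Tab2 (0.899 to 1.15) and 0.995 for key (0.864 to 1.15), with edgeR adjusted p of 0.820, 0.895 and 0.976. The sign of these small differences changed with the scaling or the libraries used. With upper-quartile scaling the log2 fold changes of Tak1 and Tab2 were -0.02 and -0.04, and with library totals only that of key was 0.01. Tak1 also turned without w1118 replicate 2, Tab2 without Adar5G1 replicate 3 or w1118 replicate 1, and key without Adar5G1 replicate 3 or w1118 replicate 3.

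Diap2 (FBgn0015247, 2R:11819675-11822330), the ubiquitin ligase that modifies Imd and Dredd, had 52.6, 49.3 and 55.5 CPM in Adar5G1 and 60.2, 62.9 and 62.5 CPM in w1118. All Adar5G1 libraries lay below all w1118 libraries. Its fold was 0.849 (95% interval 0.756 to 0.954), with an unadjusted p of 0.0117 and an edgeR adjusted p of 0.0709, short of the threshold. It passed in 3 of 17 alternative fits. Without Adar5G1 replicate 3 the edgeR adjusted p was 0.0446, without both libraries numbered 3 it was 0.0467, and with upper-quartile scaling 0.0401. In the other 14 it stayed short of the threshold. Its adjusted p was 0.180 with DESeq2, 0.113 with edgeR and no filter on low counts, and up to 0.208 with edgeR on leaving out 1 library. Its 95% interval excluded a fall below 0.756-fold.

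Rel (FBgn0014018, 3R:4869905-4873699, minus strand), the NF-kappaB factor at the end of the route, rose in Adar5G1. It had 132, 155 and 135 CPM in Adar5G1 replicates 1, 2 and 3 and 70.5, 71.7 and 83.9 CPM in w1118, resting on 607 to 2826 counts per library. The lowest Adar5G1 library lay well above the highest w1118 library. The mean was 141 ± 12.4 against 75.4 ± 7.43 CPM (SD, n = 3), a fold of 1.87 (95% interval 1.60 to 2.18; log2 fold change 0.90, SE 0.10, edgeR adjusted p = 0.000717). Of all genes tested, 5.76% had a fitted log2 fold change at least as high.

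The gene pirk (FBgn0034647, 2R:17548472-17549772, minus strand) encodes a cytoplasmic protein that binds Imd and the receptors and dampens signalling. It had 6.95, 5.31 and 6.51 CPM in Adar5G1 and 2.21, 2.66 and 3.02 CPM in w1118. The groups did not overlap, although the counts were small, 36 to 136 per Adar5G1 library and 19 to 48 per w1118 library. Its fold was 2.40 (95% interval 1.78 to 3.23; log2 fold change 1.26, SE 0.19, edgeR adjusted p = 0.00329). A log2 fold change at least as high was found for 3.72% of genes tested.

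The third rise was that of casp (FBgn0034068, 2R:11912133-11915666, minus strand), which encodes Caspar, an inhibitor of the Dredd-dependent cleavage of Relish. It had 52.4, 52.4 and 51.8 CPM in Adar5G1 and 40.0, 37.7 and 37.6 CPM in w1118, in Adar5G1 the smallest spread relative to the mean of the 10 genes. Its fold was 1.36 (95% interval 1.22 to 1.52, edgeR adjusted p = 0.00424). With library totals only, which leave out the TMM factors of 0.764 to 1.25, its log2 fold change was 0.44 but the adjusted p was 0.651. Rel and pirk stayed past the threshold in each of the 17 alternative fits, with adjusted p of at most 0.0170 and 0.0257.

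**Figure D3:**
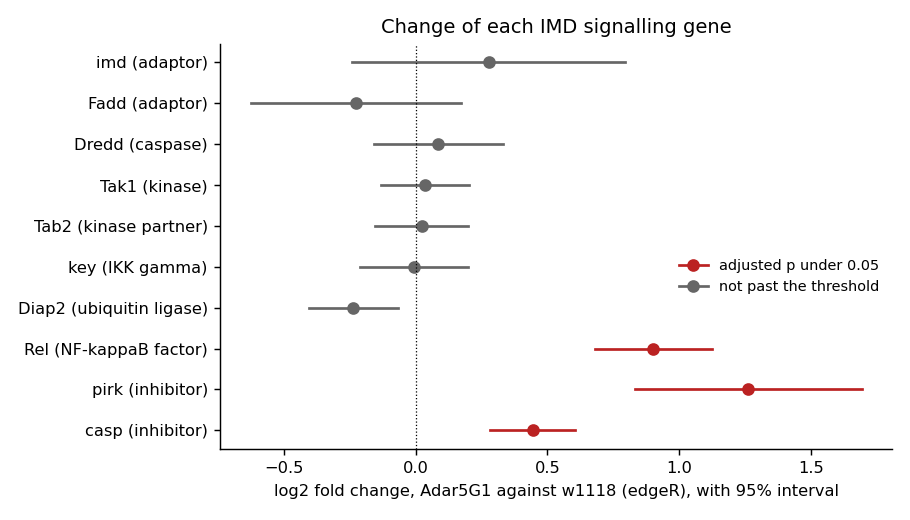
The log2 fold change of Adar5G1 against w1118 from the edgeR fit is shown for each gene with its 95% interval. Red marks the 3 genes past an adjusted p of 0.05. The intervals of Rel (0.68 to 1.12) and pirk (0.83 to 1.69) lie to the right of those of Fadd, Dredd, Tak1, Tab2 and key, and the interval of imd (-0.24 to 0.79) is the widest among the adaptors and kinases.

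The feedback genes Rel and pirk were then set against the adaptors and kinases within each library, where the scaling between libraries cancels. Counts of Rel were 7.37, 8.02 and 7.51 times the geometric mean of imd, Fadd, Dredd, Tak1, Tab2 and key in Adar5G1 replicates 1, 2 and 3. In w1118 they were 3.89, 4.09 and 4.52 times that mean. Counts of pirk were 0.386, 0.275 and 0.362 times it in Adar5G1 and 0.122, 0.152 and 0.163 times it in w1118. Neither ratio overlapped between the groups, and the ratio rose by a factor of 1.83 for Rel and 2.33 for pirk.

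The same ratio for casp was 2.91, 2.71 and 2.88 in Adar5G1 and 2.21, 2.15 and 2.03 in w1118. For Diap2 it was 2.92, 2.55 and 3.08 against 3.32, 3.59 and 3.37. Against imd alone the ratio of Rel was still apart between groups (11.2 to 17.2 against 8.09 to 10.4), while those of pirk (0.383 to 0.904 against 0.253 to 0.387) and casp (3.78 to 6.82 against 4.19 to 5.48) overlapped (imd was high in Adar5G1 replicate 2). The ratio of Diap2 to imd was 3.55 to 6.85 in Adar5G1 and 6.91 to 9.15 in w1118. These ratios were not tested: an exact permutation test of 3 against 3 libraries cannot go below a 2-sided p of 0.1. As a further description, the lower bound of the fold of pirk lay above the upper bounds of all 6 adaptors and kinases, that of Rel above 5 of the 6 (not imd), and that of casp above 4 of the 6.

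**Figure D4:**
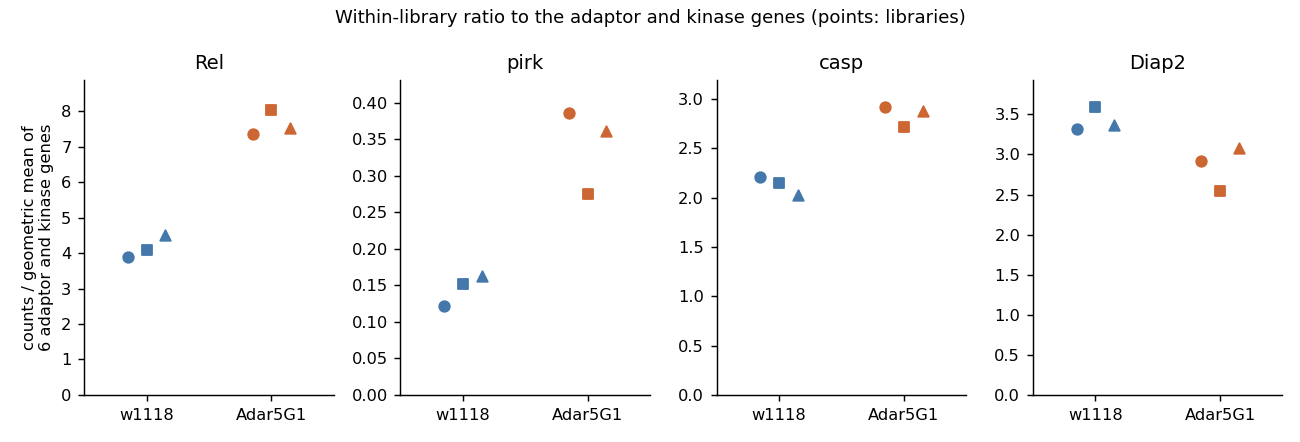
The vertical axes give the counts of Rel, pirk, casp and Diap2 divided by the geometric mean of the counts of the 6 adaptor and kinase genes in the same library. Points are libraries, blue for w1118 and orange for Adar5G1, with circles, squares and triangles for replicates 1, 2 and 3. Adar5G1 lies above w1118 for Rel, pirk and casp and below it for Diap2.

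Transcripts of the fat body, a main site of IMD signalling, were measured in the same libraries. Of 7 tested fat body markers 4 rose and 0 fell (edgeR, with 0 falls also at an unadjusted p under 0.05 and in DESeq2 and limma-voom), and their summed level was 5225 to 6457 CPM in Adar5G1 and 2911 to 4408 CPM in w1118. Over all genes tested, 8.82% rose and 5.13% fell. Of the 4, Fbp1 (63 against 6 counts) passed the filter on low counts through Adar5G1 alone, so its rise was built in and nothing is read from it. The other rises were those of the lipoprotein gene apolpp (1.67-fold), Apoltp (2.32-fold) and the lipid droplet gene Lsd-1 (8.46-fold). The fat body gene Fbp2 had 3 and 2 counts over the groups. Most of the summed level was apolpp, at 4201 to 5170 CPM in Adar5G1 and 2314 to 3647 CPM in w1118. Lsp2, Lpin and bmm did not pass (edgeR adjusted p of 0.530, 0.145 and 0.111). In bulk RNA a different number of cells of a type and a different amount of RNA per cell cannot be told apart, and the part of the fat body in the rise of Rel and pirk was not tested. Of 8 midgut markers 3 rose, 0 fell and 4 (Jon65Aiv, Jon99Ciii, alphaTry and betaTry) had 0 counts in all libraries (the same counts of calls with DESeq2 and limma-voom, and 0 falls at an unadjusted p under 0.05). The remaining marker, Mal-A1, was 0.645-fold and did not pass (edgeR adjusted p = 0.339). Amy-p (254 against 2 counts) and Amy-d (691 against 49 counts), both among the 3, passed the filter through Adar5G1 alone, so the count of midgut rises is not read further. The summed level of the listed midgut genes was 217 to 283 CPM in Adar5G1 and 70.9 to 108 CPM in w1118. Nearly all of it was the mannosidase gene LManII, so the sum is not a measure of midgut tissue. A link of LManII to the rise of Rel and pirk was not tested. Of 7 photoreceptor markers 2 fell (ninaC and inaD; 4 with DESeq2 and with limma-voom) and 0 rose with edgeR, 0 likewise with DESeq2, with limma-voom and at an unadjusted p under 0.05. Of 8 glial markers 2 fell (bdl and Gli) and 0 rose with each of these tools (4 and 0 at an unadjusted p under 0.05). Of 7 neuronal markers 1 rose (Syt1) and 0 fell with each of these tools and at an unadjusted p under 0.05. Of 8 tested hemocyte markers 0 rose and 0 fell with edgeR (0 and 2 at an unadjusted p under 0.05, 0 and 1 with DESeq2, 0 and 0 with limma-voom), and the hemocyte gene He was near 0, at 5 and 8 counts over the groups.

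Upstream of the 10 genes, 5 of 8 tested genes for receptors and peptidoglycan handling rose and 0 fell, with a median log2 fold change of 1.21 (5 rises with DESeq2 and 3 with limma-voom, and 0 falls with either or at an unadjusted p under 0.05; 2 rises with robust dispersion). Beside this, 8.82% of all genes tested rose. The list had 11 genes, and the other 3, PGRP-SB2, PGRP-SC1a and PGRP-SC1b, had at most 1 count over a group. The count of 5 and the median include PGRP-SC2, whose rise was built in by the filter on low counts. Also among the 5 were PGRP-LB, at 1.90-fold, and PGRP-SD, at 2.82-fold (edgeR adjusted p of 0.0228 and 0.0347). The decoy receptor gene PGRP-LF had 12.4, 11.2 and 16.4 CPM in Adar5G1 and 2.32, 2.88 and 3.24 CPM in w1118. Secreted PGRP-SB1 had 122, 34.1 and 23.2 against 3.25, 1.77 and 3.35 CPM. Without Adar5G1 replicate 1 its log2 fold change was 3.42 in place of 4.52, and its call was lost with robust dispersion (edgeR adjusted p = 0.0574, 2.7e-40 to 0.0574 over the alternatives). The amidase gene PGRP-SC2 had 15.6, 3.99 and 1.72 against 0.116, 0.0555 and 0 CPM. Its 274 against 2 counts, of which 211 came from Adar5G1 replicate 1, correspond after allowing for library sizes to a ratio of 119 (95% interval of 32.7 to 991 from counting error only), and without that library its fitted log2 fold change was 5.31 in place of 6.77. PGRP-SC2 passed the filter on low counts through Adar5G1 alone, so nothing is read from its rise. Its call was lost without w1118 replicate 1 or 2, with limma-voom and with robust dispersion.

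The signalling receptors themselves stood with the adaptors. PGRP-LC, the main membrane receptor, had 44.3, 50.8 and 41.9 CPM in Adar5G1 and 40.4, 41.9 and 44.8 CPM in w1118 (1.07-fold, 95% interval 0.925 to 1.24), and the intracellular receptor gene PGRP-LE was 1.06-fold (0.908 to 1.25). Neither passed the test, with edgeR adjusted p of 0.564 and 0.641. Without w1118 replicate 1 or 2, 2 genes of this list rose in place of 5, and without Adar5G1 replicate 1, 3 rose.

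Among 8 other cytoplasmic and nuclear activators of the pathway 0 rose and 0 fell (edgeR; 0 and 1 at an unadjusted p under 0.05, and 0 in each direction with DESeq2 and limma-voom), with a median log2 fold change of -0.03. They included IKKbeta, the catalytic partner of Kenny, at 11.5 ± 1.15 against 11.1 ± 1.18 CPM (SD, n = 3). The ubiquitin-conjugating enzyme gene eff, the most abundant of them, had 212 ± 6.92 against 205 ± 10.1 CPM. Of 13 other negative regulators tested, 0 rose and 0 fell (edgeR; 1 and 1 at an unadjusted p under 0.05, and 0 in each direction with DESeq2 and limma-voom), with a median log2 fold change of -0.08. The deubiquitinase gene faf, the most abundant of these, had 475 ± 0.771 against 504 ± 20.9 CPM. This list holds no peptidoglycan recognition genes, and the decoy receptor gene PGRP-LF, which rose, was counted with the receptors. The difference between pirk and casp and this list of other negative regulators was not tested.

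Among the listed genes of JNK signalling, 1 of 9 tested fell and 0 rose with edgeR. At an unadjusted p under 0.05 there were 2 rises and 2 falls, and with DESeq2 and with limma-voom 0 rises and 1 fall. The fall past the adjusted threshold was that of Gadd45, a stress-response gene tied to JNK signalling. It had 6.58, 5.76 and 4.84 CPM in Adar5G1 and 10.7, 13.1 and 12.9 CPM in w1118 (log2 fold change -1.11, SE 0.16, edgeR adjusted p = 0.00254). The JNK gene bsk had a fold of 0.903 and puc, its induced phosphatase, 1.09, and neither passed the test. Without Adar5G1 replicate 3, 2 genes of this list fell. The paralogs of Tak1 had few or no counts: Takl1 had 0 in all libraries and Takl2 had 9 and 13 over the groups.

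The NF-kappaB genes of the Toll branch gave a comparison for Rel. The dorsal gene dl was 1.22-fold higher (95% interval 1.09 to 1.37, edgeR adjusted p = 0.0275), while Dif, at 1.09-fold, and the inhibitor gene cact, at 1.14-fold, did not pass. The call of dl was lost in 9 of 17 alternative fits, among them those without Adar5G1 replicate 1 or 3 and those without w1118 replicate 1, 2 or 3. The interval of Rel, 1.60 to 2.18, lay above that of dl.

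Downstream, 7 of 10 tested antimicrobial peptide genes known to respond to IMD rose and 0 fell (edgeR; 10 rises and 0 falls at an unadjusted p under 0.05, 9 and 0 with DESeq2, 6 and 0 with limma-voom). All 10 passed the filter on low counts through Adar5G1 alone, so a rise was built into that count and nothing is read from it. The metchnikowin gene Mtk had 371, 224 and 184 CPM in Adar5G1 and 0.813, 0.333 and 0.756 CPM in w1118, and the drosocin gene Dro had 417, 148 and 198 against 0.348, 0.166 and 0.756 CPM. The attacin gene AttC had 317, 143 and 99.0 against 0.581, 0.166 and 0.324 CPM. These values are given as levels only, and DptA, CecA2 and CecC had 0 counts in every w1118 library. The summed level of the 13 listed genes was 1589, 704 and 599 CPM in Adar5G1 replicates 1, 2 and 3 and 7.20, 2.995 and 3.89 CPM in w1118. Across the mutant libraries Rel was lowest in replicate 1 and highest in replicate 2, and pirk lowest in replicate 2 and highest in replicate 1. Neither had the order of the sum, but the tested peptide genes differed among themselves as well. AttC fell from replicate 1 to replicate 3, while Dro was lowest and DptA highest in replicate 2. Some orders rest on small gaps, such as AttA at 9.30 and 10.2 CPM in Adar5G1 replicates 2 and 3. Nothing is therefore read from these orders, and a link between them was not tested.

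**Figure D5:**
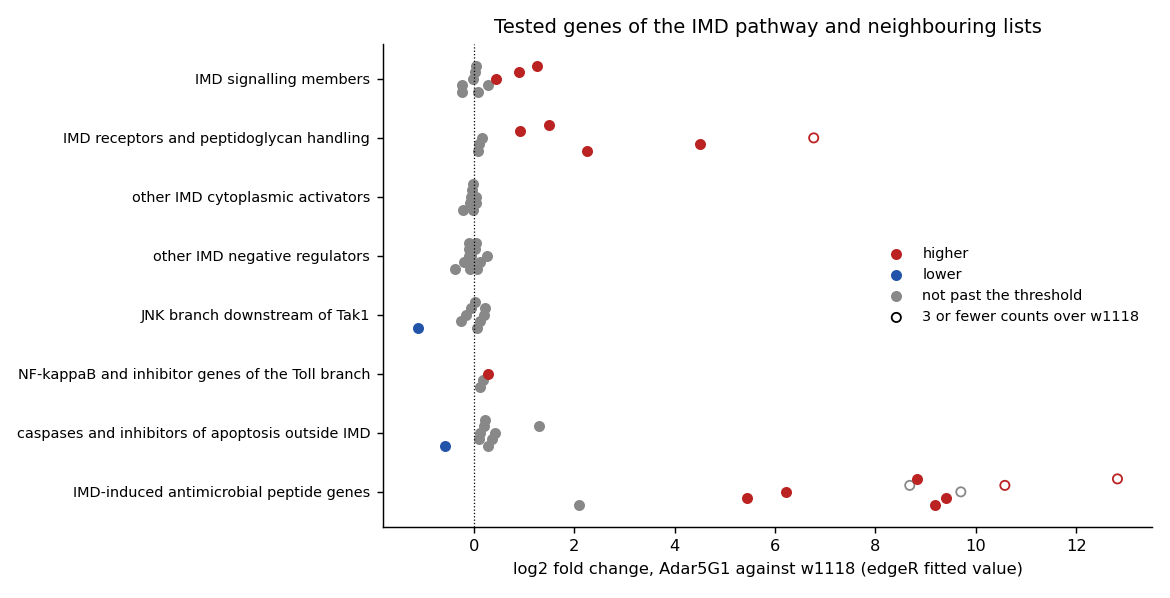
Fitted log2 fold changes of the tested genes of each list, with 1 point per gene, are shown on the horizontal axis, red for genes higher and blue for genes lower at an adjusted p of 0.05, and grey for the rest. Open points are genes with 3 or fewer counts over w1118, whose fitted value is no bound. The activators and other negative regulators cluster near 0, and the peptide genes and part of the peptidoglycan recognition genes lie far to the right. All 10 tested peptide genes and PGRP-SC2 passed the filter on low counts through Adar5G1 alone, so a rise was built in and nothing is read from their position.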

How the data were processed

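The authors obtained fragment counts per gene from exons of FlyBase release 5.53 using featureCounts 1.4.5-p1 in its reverse-stranded mode, per the file headers. A fragment over several genes was counted for each. The deposited values are raw counts. The aligner was TopHat and the build dm3 (BDGP5), per the submitters' processing notes, and coordinates are those of the deposited files. No exon of the 10 genes is shared on the same strand. Symbols were paired with 15924 of 16641 IDs. The listed genes slmb, Bruce, PPO1, para and chp are not analysed here. The row without a gene ID (0.369% to 0.633% of counts) was left out.

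The test was that of edgeR 4.0.16 under R 4.3.3 (filterByExpr at 10 counts, TMM, quasi-likelihood F test, group only, Benjamini-Hochberg over all tested genes, threshold 0.05). The SE is the log2 fold change over the square root of F, and intervals are 95%. Fold bounds used 3 counts over a group. No pair of libraries agreed within sampling noise (chi-square per degree of freedom of at least 30.6), so none was merged. This does not show that they came from separate flies. The fits were tested on simulated data. The members and lists were chosen with earlier results of these data known. Named were all members, Adar and, per list, up to 3 genes past the threshold per direction with the smallest p, or else the most abundant; other genes were chosen after their values were seen. Alternatives were DESeq2 1.42.0, limma-voom (limma 3.58.1), other scalings, filters and thresholds, robust dispersion, a replicate block, removal of ribosomal and unplaced rows, and leaving out libraries.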

Additional observations from a re-analysis of the deposited data

How the results depend on the processing

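Rel, pirk and casp rose in each alternative except that casp did not pass with library totals only (log2 fold change 0.44). With upper-quartile scaling 1 member fell, Diap2 (-0.29), Tak1 and Tab2 turned to -0.022 and -0.035, the other activators and other negative regulators had 1 fall each, and 0 Toll-branch NF-kappaB genes rose. With library totals only 582 genes rose and 209 fell, key turned to 0.0086, 0 Toll-branch genes rose, and 1 caspase and apoptosis gene rose and 0 fell. With DESeq2 1 caspase and apoptosis gene rose. Receptor and peptidoglycan genes that rose numbered 3 with limma-voom and 2 with robust dispersion. At an adjusted p of 0.01, 456 genes rose and 248 fell, 2 receptor genes rose and 0 Toll-branch genes rose. Without both libraries numbered 3, 1 member fell, Diap2 (-0.27), key turned to 0.078, 2 JNK genes fell and 0 Toll-branch genes rose. Against imd alone, the log2 ratio of Rel differed by 0.63 between groups in place of 0.87, that of pirk by 0.98 in place of 1.22 and that of casp by 0.17 in place of 0.41.

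Leaving out 1 library at a time, rises over all genes numbered 545 to 1024 and falls 331 to 515, the lowest of each without w1118 replicate 1. Members that fell numbered 0 to 1, receptor genes that rose 2 to 5, JNK genes that fell 1 to 2, and Toll-branch genes that rose 0 to 1. The log2 fold change ran from -0.012 to 0.083 for Tak1, from -0.040 to 0.049 for Tab2, from -0.056 to 0.040 for key and from -0.28 to -0.20 for Diap2. Among named non-members, eff turned to -0.0092 with upper-quartile scaling.

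Replicate numbers did not pair the libraries: same-numbered libraries had correlations of 0.11, -0.18 and -0.29 between their deviations from the group means over genes. Differently numbered libraries reached 0.34 (Adar5G1 replicate 3 with w1118 replicate 2) and 0.25 (Adar5G1 replicate 2 with w1118 replicate 3), and the lowest of them was -0.18. What such libraries share was not tested. With the replicate block 484 genes rose and 278 fell, 3 receptor genes and 0 Toll-branch genes rose, and 1 caspase and apoptosis gene rose and 0 fell. The cause of these changes was not tested. The fewest counts per library, 19 to 185, were behind Fadd, pirk and imd.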

Other observations

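Genes of cell death outside the IMD pathway include relatives of Dredd (the caspases) and of Diap2 (Diap1), and other regulators. Of 9 tested, 1 of which passed the filter on low counts through Adar5G1 alone, 1 fell and 0 rose with edgeR (4 rises at an unadjusted p under 0.05, 1 with DESeq2 and 0 with limma-voom). The fall was that of Dark, the apoptosome scaffold gene, with 36.6, 37.4 and 43.5 CPM in Adar5G1 and 63.8, 59.7 and 52.7 CPM in w1118 (log2 fold change -0.58, SE 0.10, edgeR adjusted p = 0.00724). The groups did not overlap, and the call was lost with library totals only and with the replicate block. The inhibitor of apoptosis gene Diap1 had 167 ± 5.48 against 145 ± 4.09 CPM (SD, n = 3) and did not pass (1.15-fold, edgeR adjusted p = 0.0746). The death-inducing gene rpr was 2.46-fold (95% interval 1.33 to 4.55, edgeR adjusted p = 0.0616), at 2.28 ± 0.856 against 0.813 ± 0.325 CPM. It was the gene that passed the filter on low counts through Adar5G1 alone, with 85 against 32 counts. A rise of rpr, which is among the 4 at an unadjusted p under 0.05, was therefore built in and nothing is read from it.

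A few genes chosen after their values were seen lay just short of the threshold. The negative regulator dnr1, a ubiquitin ligase that acts on Dredd, had 98.9, 106 and 111 CPM in Adar5G1 and 92.1, 89.6 and 80.0 CPM in w1118 (edgeR adjusted p = 0.0620). The deubiquitinase gene trbd had 68.0, 68.1 and 69.7 against 76.7, 79.7 and 80.5 CPM (edgeR adjusted p = 0.0709), and Uev1A, which works in making the ubiquitin chains, had 113, 103 and 97.2 against 122, 119 and 124 CPM (edgeR adjusted p = 0.0971). Like Diap2, trbd and Uev1A were lower in each Adar5G1 library than in each w1118 library. Groups that did not overlap, in either direction, were found for 31.5% of all genes tested, so nothing is read from this.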
